A study of Mus musculus with 18 samples.

Results

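The 10 genes described here are Trp53, which encodes the transcription factor p53, its inhibitor Mdm2, and 8 genes that p53 is known to activate: Ccng1, Sesn1, Zmat3, Phlda3, Bax, Bbc3, Fas and Eda2r. They were taken by name from the 35275 genes of the deposited expression table, and all 10 were among the 13869 genes that were tested, those that reached 0.5 FPM in 3 libraries or more. FPM is a read count scaled for library size and not for gene length. The 18 libraries came from C2C12, a line of mouse myoblasts, in this stock PAX7 negative per the labels. The cells were either control, with the genotype given as wild-type, or made to overexpress MUNC, a long noncoding RNA transcribed near Myod1. The overexpressed form was the spliced (MUNC spliced) or the genomic (MUNC genomic) one. Each kind of cell was sampled at about 80% confluence in growth medium with 20% FBS (GM) and after 3 days with 2% horse serum (DM3), with 3 biological replicates in each of the 6 groups. The promoter of the MUNC constructs, whether control cells carried an empty vector and whether a line came from 1 clone are not given in the sources used here. The level of MUNC itself was not analysed here.

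p53 is held at a low level by the Mdm2 protein, a ubiquitin ligase that marks it for degradation, and DNA damage or other stress releases it. Because p53 in turn activates Mdm2, the pair form a feedback loop. The targets divide into genes that slow growth or answer stress and genes that promote death. The activity of p53 is set largely at the protein level, which RNA-seq does not measure. In muscle, myoblasts leave the cell cycle before they fuse, and the p53 target Cdkn1a, an inhibitor of cyclin-dependent kinases, is among the genes known to rise then.

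p53 binds DNA as a tetramer through pairs of a 10-base sequence, the p53 consensus decamer. The windows from 250 bases before to 50 bases after the RefSeq transcription starts (GRCm38.p6) were searched for it on both strands. Windows were given for 9 of the 10 genes (not for Zmat3), 12 windows in all, and 1 window of each of Trp53, Mdm2, Ccng1, Bax and Sesn1 held 1 match. Across all promoters 2745 of 32851 windows (8.36%) held at least 1 match. The 5 matching stretches are shown because they place the sequence before the start sites of genes whose levels follow. Each is written 5′ to 3′ on the strand of its gene with the decamer in capitals. They lie at chr11:69580264-69580313 (plus strand, Trp53), chr10:117710915-117710964 (minus strand, Mdm2), chr11:40755442-40755491 (minus strand, Ccng1), chr7:45467070-45467119 (minus strand, Bax) and chr10:41887246-41887295 (plus strand, Sesn1).
Trp53: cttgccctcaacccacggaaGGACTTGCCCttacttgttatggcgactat
Mdm2: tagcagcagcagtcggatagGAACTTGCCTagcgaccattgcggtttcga
Ccng1: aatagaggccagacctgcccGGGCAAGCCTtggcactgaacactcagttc
Bax: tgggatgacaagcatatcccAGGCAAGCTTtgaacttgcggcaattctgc
Sesn1: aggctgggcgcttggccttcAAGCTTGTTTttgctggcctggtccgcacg
The decamer began 75 bases before the start of Trp53, 186 before that of Mdm2, 185 before that of Ccng1, 201 before that of Bax and 173 before the downstream start of Sesn1. None of the 5 stretches overlaps an exon in GENCODE M21; that of Sesn1 is in an intron of Sesn1 and that of Bax in an intron of Gm45808, a gene model on the same strand. No window of these genes held a pair of matches separated by at most 13 bases, and 24 of all windows (0.073%) did. The windows of Bbc3, Fas, Eda2r and Phlda3 held no match. The search allowed no mismatch and did not cover sequence outside the windows, so it does not show that a gene lacks p53 sites. A match describes the letters of these windows and is not evidence of binding.

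Recovered depth was 38416702 to 68788327 reads per library, and the 10 genes had between 95 reads (Fas) and 41812 reads (Ccng1) in a library. Markers set a limit on the groups as models of differentiation. In control cells, labelled myotubes in DM3, Myod1 was at 0.221 FPM or less and Myog at 0.434 FPM or less in every DM3 library, and 5 genes of differentiating muscle (Myog, Mymk, Myh3, Ckm and Tnnt3) summed to 2.42 to 9.28 FPM. The same sum was 114 to 570 FPM in MUNC spliced and 34.9 to 62.6 FPM in MUNC genomic cells in DM3. A sum over 4 myoblast genes (Myod1, Myf5, Des and Pax7) was 82.0 to 114 FPM in control GM and 159 to 197 FPM in control DM3. For MUNC spliced cells it was 90.7 to 115 FPM in GM and 156 to 272 FPM in DM3. It was highest in MUNC genomic cells, at 365 to 655 FPM in GM and 877 to 1063 FPM in DM3. A sum over 5 proliferation genes (Mki67, Top2a, Cdk1, Ccnb1 and Mcm5) fell from 2148 to 2680 FPM in control GM to 178 to 336 FPM in control DM3. It was 1538 to 1915 FPM in MUNC spliced GM and 193 to 858 FPM in MUNC spliced DM3, where replicate 1 stood apart with the highest proliferation and muscle sums. In MUNC genomic cells it was 2173 to 2289 FPM in GM and 218 to 273 FPM in DM3. A sum over 7 interferon response genes was 2670 to 4473 FPM in control DM3, 1508 to 2336 FPM in MUNC spliced DM3 and 40.2 to 46.7 FPM in MUNC genomic DM3. The part that these differences have in the values below was not tested. Fewer cells of a type and less RNA per cell cannot be told apart in these bulk samples. Markers of leukocytes, endothelial cells and adipocytes summed to at most 7.36 FPM in any library, and Adgre1 was at 0 in 5 of the 6 groups. The highest of these sums, over the endothelial genes Pecam1 and Cdh5, was 7.08 to 7.36 FPM in MUNC genomic GM and at most 0.602 FPM in control and MUNC spliced libraries.

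Per kilobase of exon, Ccng1 had the highest mean level over the 18 libraries, 135 FPM per kb, followed by Phlda3 with 78.2, Bax with 65.2, Trp53 with 36.5, Mdm2 with 31.9 and Sesn1 with 22.1. Eda2r (9.51), Zmat3 (6.99), Bbc3 (4.20) and Fas (3.15 FPM per kb) were the lowest. The order of variability was different. Fas spanned 8.87-fold from its lowest to its highest library and Sesn1 5.95-fold, whereas Mdm2 spanned 1.59-fold. The plot of FPM by sample shows all values.

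**Figure D1:**
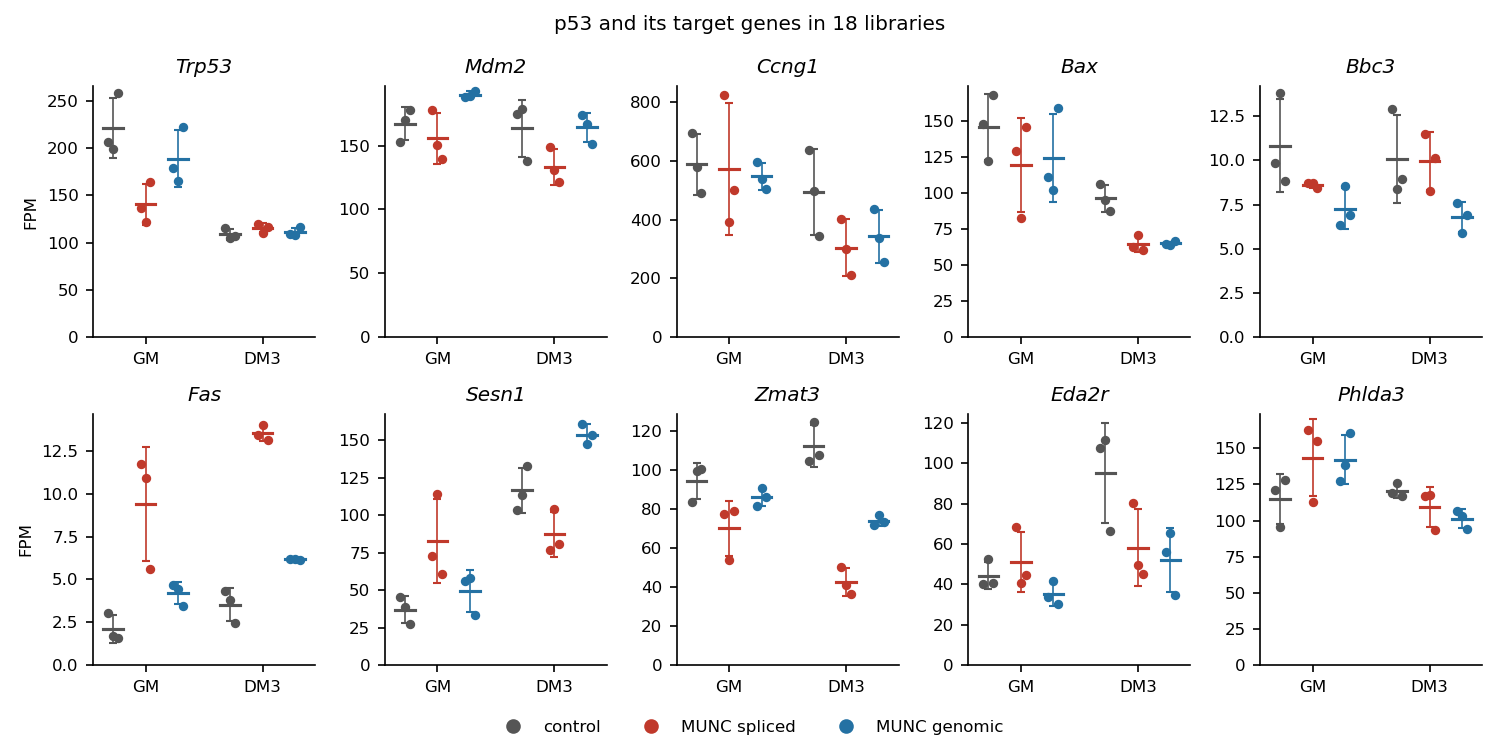
FPM (vertical axis, linear, starting at 0) of the 10 genes in GM and DM3, with 1 point per library, the mean as a bar and the SD as whiskers (n = 3), in control (grey), MUNC spliced (red) and MUNC genomic (blue) cells. Trp53 lies between 105 and 119 FPM in all 9 DM3 libraries and between 121 and 258 FPM in the 9 GM libraries, and Fas is highest in MUNC spliced cells.

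Trp53 (ENSMUSG00000059552, chr11:69580359-69591873, plus strand) was lower in DM3 than in GM, and in GM it was lower in MUNC spliced than in control cells. Control cells had 207, 199 and 258 FPM in GM (replicates 1 to 3) and 115, 105 and 106 FPM in DM3. MUNC spliced cells had 136, 121 and 164 FPM in GM and 119, 110.2 and 117 FPM in DM3. MUNC genomic cells had 179, 165 and 223 FPM in GM and 109.6, 108 and 116 FPM in DM3. In GM the MUNC spliced libraries lay below all others while those of MUNC genomic and control cells overlapped, in DM3 the 3 lines overlapped, and no DM3 library reached the lowest GM library. The log2 change from GM to DM3 was −1.01 ± 0.13 (SE, limma adjusted p = 6.6e-06) in control and −0.75 ± 0.13 (limma adjusted p = 0.00015) in MUNC genomic cells. For MUNC spliced cells it was −0.27 ± 0.13 (limma adjusted p = 0.11), and the difference between the MUNC spliced and the control change was itself called, at 0.74 ± 0.18 (limma adjusted p = 0.014). In GM, MUNC spliced lay 0.65 log2 units below control (−0.65 ± 0.13, limma adjusted p = 0.00088) and 0.42 below MUNC genomic (−0.42 ± 0.13, limma adjusted p = 0.016). The latter call was lost without MUNC spliced GM replicate 2 or MUNC genomic GM replicate 3 (log2 −0.33 to −0.30). In DM3 neither line differed from control by a called amount (0.09, 95% interval −0.18 to 0.36, in MUNC spliced and 0.03, −0.24 to 0.30, in MUNC genomic cells).

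Mdm2 (ENSMUSG00000020184, chr10:117688875-117710758, minus strand), the ubiquitin ligase that restrains p53, was the least variable of the 10 genes. Its 9 GM libraries ranged from 139 to 193 FPM with a median of 178 FPM, and its 9 DM3 libraries from 121 to 178 FPM with a median of 152 FPM. From GM to DM3 its log2 change was −0.04 (95% interval −0.29 to 0.21) in control cells, −0.22 (−0.47 to 0.03) in MUNC spliced and −0.21 (−0.46 to 0.04) in MUNC genomic cells, none of them called. In DM3, MUNC spliced cells had 149, 131 and 121 FPM against 174, 167 and 152 FPM in MUNC genomic and 174, 178 and 138 FPM in control cells. The MUNC spliced libraries lay below all MUNC genomic libraries and overlapped the control libraries. The difference from MUNC genomic was called (−0.30 ± 0.12, limma adjusted p = 0.048) and was lost without either of replicates 2 and 3 of MUNC spliced DM3 or either of replicates 1 and 2 of MUNC genomic DM3 (log2 −0.29 to −0.23). Against control the difference was −0.29 ± 0.12 (limma adjusted p = 0.059), and 0.028 with the replicate number as a block. In GM the difference between MUNC spliced and MUNC genomic cells was −0.29 ± 0.12 (limma adjusted p = 0.064), and 0.03 with the block.

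Among the growth and stress targets, Sesn1 and Zmat3 differed most between lines. Sesn1 (ENSMUSG00000038332, chr10:41809935-41908424, plus strand) encodes sestrin 1, a stress protein that restrains the growth kinase complex mTORC1. In control cells it stood at 45.3, 38.8 and 27.1 FPM in GM and at 104, 113 and 133 FPM in DM3. In MUNC genomic cells it stood at 56.4, 58.2 and 33.4 FPM in GM and at 161, 147 and 153 FPM in DM3. The MUNC spliced cells were already at 72.9, 114 and 60.9 FPM in GM, and were at 76.7, 104 and 80.5 FPM in DM3, so that the media overlapped in this line and in no other. Sesn1 rose 3.15-fold from GM to DM3 in control (log2 1.65 ± 0.24, limma adjusted p = 2.3e-05) and 3.12-fold in MUNC genomic cells (1.66 ± 0.24, limma adjusted p = 3.1e-05). The change in MUNC spliced cells was 0.11 ± 0.24 (limma adjusted p = 0.74), which differed from that of control by −1.54 ± 0.34 (limma adjusted p = 0.008) and from that of MUNC genomic cells by −1.55 ± 0.34 (limma adjusted p = 0.0075).

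Between lines, Sesn1 was 2.23-fold higher in MUNC spliced than in control cells in GM (log2 1.12 ± 0.24, limma adjusted p = 0.0018). It was also higher than in MUNC genomic cells in GM (0.72 ± 0.24, limma adjusted p = 0.025), a call lost without MUNC spliced GM replicate 2 or MUNC genomic GM replicate 3 (log2 0.47 in each). In DM3 the order between these lines was the opposite, with MUNC spliced below MUNC genomic by −0.82 ± 0.24 (limma adjusted p = 0.0098). Against control in DM3 Sesn1 was not called in either line (−0.42, 95% interval −0.92 to 0.08, in MUNC spliced and 0.40, −0.10 to 0.91, in MUNC genomic cells). In the authors' deposited table of MUNC genomic against control in DM3, Sesn1 had an adjusted p of 0.0032 at a log2 fold change of 0.42.

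Zmat3 (ENSMUSG00000027663, chr3:32334792-32366014, minus strand) encodes an RNA-binding zinc finger protein that acts in splicing. Control cells had 83.6, 99.3 and 100.4 FPM in GM and 105, 124 and 108 FPM in DM3. MUNC spliced cells had 77.2, 53.8 and 79.0 FPM in GM and 50.4, 40.8 and 36.5 FPM in DM3. MUNC genomic cells had 81.8, 91.0 and 86.1 FPM in GM and 71.8, 76.8 and 73.5 FPM in DM3. In DM3 the 3 lines did not overlap, with control highest and MUNC spliced lowest. MUNC spliced fell by 0.70 ± 0.14 log2 units from GM to DM3 (limma adjusted p = 0.0013), while the changes of control (0.25, 95% interval −0.05 to 0.55) and MUNC genomic cells (−0.22, −0.52 to 0.08) were not called. The change in MUNC spliced differed from that in control cells by −0.95 ± 0.20 (limma adjusted p = 0.0068). In DM3 Zmat3 was 2.64-fold lower in MUNC spliced (log2 −1.39 ± 0.14, limma adjusted p = 1e-06) and 1.52-fold lower in MUNC genomic cells (−0.59 ± 0.14, limma adjusted p = 0.0032) than in control. MUNC spliced lay below MUNC genomic cells (−0.80 ± 0.14, limma adjusted p = 0.00024). In GM the difference between MUNC spliced and control cells was −0.44 ± 0.14 (limma adjusted p = 0.023), which was lost without control GM replicate 2 or 3 or MUNC spliced GM replicate 2 (log2 −0.40 to −0.27).

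Ccng1 and Phlda3 changed in fewer comparisons. Ccng1 (ENSMUSG00000020326, chr11:40748552-40755311, minus strand) encodes cyclin G1, which acts on Mdm2 through the phosphatase PP2A. It had 696, 580.5 and 491 FPM in control GM and 639, 497 and 346 FPM in control DM3. The MUNC spliced cells had 825, 394 and 501 FPM in GM and 404, 301 and 211 FPM in DM3, and in MUNC genomic cells 599, 539 and 506 FPM in GM and 435, 338 and 257 FPM in DM3. Replicate 1 was the highest of the 3 in all 6 groups and replicate 3 the lowest in 5, and the 3 lines overlapped in each medium. Ccng1 fell in MUNC spliced cells from GM to DM3 (log2 −0.89 ± 0.29, limma adjusted p = 0.024), a call lost without MUNC spliced DM3 replicate 2 or 3 or MUNC spliced GM replicate 1 (log2 −0.90 to −0.59). The change was −0.70 ± 0.29 (limma adjusted p = 0.0502) in MUNC genomic and −0.28 ± 0.29 (limma adjusted p = 0.41) in control cells. In DM3 the difference from control was −0.70 ± 0.29 (limma adjusted p = 0.059) in MUNC spliced and −0.51 ± 0.29 (limma adjusted p = 0.17) in MUNC genomic cells. With the replicate number as a block both were called, at limma adjusted p of 0.002 and 0.015.

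Phlda3 (ENSMUSG00000041801, chr1:135766119-135769136, plus strand) encodes a small protein that blocks the kinase Akt at the membrane. Its 9 GM libraries ranged from 95.2 to 163 FPM (median 128 FPM) and its 9 DM3 libraries from 93.1 to 126 FPM (median 117 FPM). It fell from GM to DM3 in MUNC genomic cells, from 127, 138 and 161 to 106, 103 and 94.1 FPM, with no overlap (log2 −0.48 ± 0.14, limma adjusted p = 0.011). That call was lost without MUNC genomic GM replicate 3 (log2 −0.39, limma adjusted p = 0.058). For MUNC spliced cells the change was −0.38 ± 0.14 (limma adjusted p = 0.051), and in control cells it was 0.08 (95% interval −0.23 to 0.39). In GM Phlda3 stood 0.31 log2 units above control in both MUNC lines (limma adjusted p = 0.10 in MUNC spliced and 0.13 in MUNC genomic cells), not called in either.

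Of the death targets, Bax was lower and Fas higher than control in both MUNC lines in DM3. In GM Bax was not called against control in either line (log2 −0.32, limma adjusted p = 0.20, and −0.25, limma adjusted p = 0.37). Bax (ENSMUSG00000003873, chr7:45461697-45466898, minus strand) encodes a protein that opens the outer mitochondrial membrane. In GENCODE M21 it shares 192 exonic bases (12.2% of its exonic length) with Gm45808 on the same strand. Gm45808 is not among the 35275 genes with deposited values, and how reads there were assigned is not known. Bax had 148, 122 and 168 FPM in control GM and 106, 95.2 and 87.7 FPM in control DM3. The MUNC spliced cells had 129, 83.0 and 146 FPM in GM and 62.6, 70.7 and 60.8 FPM in DM3. In MUNC genomic cells it had 112, 102 and 159 FPM in GM and 64.9, 64.3 and 66.6 FPM in DM3. Bax was the one member of the 10 that was lower in DM3 by a called amount in all 3 lines, at log2 −0.59 ± 0.19 (limma adjusted p = 0.013) in control, −0.84 ± 0.19 (limma adjusted p = 0.0027) in MUNC spliced and −0.89 ± 0.19 (limma adjusted p = 0.0009) in MUNC genomic cells. The control call was lost without control replicate 3 of either medium (log2 −0.52 to −0.48). In DM3 all 6 MUNC libraries lay below the lowest control library, by −0.57 ± 0.19 (limma adjusted p = 0.022) in MUNC spliced and −0.55 ± 0.19 (limma adjusted p = 0.027) in MUNC genomic cells. The first of these calls was lost without control DM3 replicate 1 or 2 or MUNC spliced DM3 replicate 1 or 3 (log2 −0.57 to −0.49), and the second without control DM3 replicate 1 or 2 or any 1 of the MUNC genomic DM3 libraries (log2 −0.57 to −0.48).

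Fas (ENSMUSG00000024778, chr19:34290666-34327772, plus strand), a death receptor at the cell surface, was the lowest of the genes and the one with the widest range. It had 3.04, 1.68 and 1.58 FPM in control GM, 11.7, 10.9 and 5.59 FPM in MUNC spliced GM and 4.67, 4.42 and 3.47 FPM in MUNC genomic GM. In DM3 it had 4.32, 3.79 and 2.45 FPM in control, 13.4, 14.0 and 13.1 FPM in MUNC spliced and 6.19, 6.21 and 6.11 FPM in MUNC genomic cells. In both media the 3 lines did not overlap, with MUNC spliced highest and control lowest. By the ratio of means MUNC spliced exceeded control 4.48-fold in GM (log2 of FPM + 1, 1.72 ± 0.23, limma adjusted p = 3.2e-05) and 3.84-fold in DM3 (1.71 ± 0.23, limma adjusted p = 2e-05). MUNC spliced also exceeded MUNC genomic cells in GM (0.95 ± 0.23, limma adjusted p = 0.004) and DM3 (1.02 ± 0.23, limma adjusted p = 0.0019). MUNC genomic exceeded control 1.99-fold in GM (0.76 ± 0.23, limma adjusted p = 0.021) and 1.75-fold in DM3 (0.69 ± 0.23, limma adjusted p = 0.025). The MUNC genomic calls were lost without control GM replicate 2 or 3 or MUNC genomic GM replicate 1 or 2 (log2 0.65 to 0.73), and without control DM3 replicate 3 or any 1 of the MUNC genomic DM3 libraries (log2 0.51 to 0.70). From GM to DM3 Fas had a log2 change of 0.55 ± 0.23 in control (limma adjusted p = 0.0501, and 0.012 with the replicate number as a block), 0.54 ± 0.23 (limma adjusted p = 0.078) in MUNC spliced and 0.47 ± 0.23 (limma adjusted p = 0.096) in MUNC genomic cells.

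Eda2r (ENSMUSG00000034457, chrX:97333840-97377216, minus strand), a receptor of the TNF receptor family for ectodysplasin A2, rose in control cells. It had 40.1, 52.3 and 40.6 FPM in control GM and 107, 112 and 66.6 FPM in control DM3, a 2.15-fold rise without overlap (log2 1.06 ± 0.27, limma adjusted p = 0.0031). The change was 0.17 (95% interval −0.40 to 0.75) in MUNC spliced, from 68.2, 40.8 and 44.4 to 80.1, 49.6 and 44.9 FPM, and 0.52 (−0.05 to 1.09) in MUNC genomic cells, from 33.5, 41.8 and 30.02 to 55.9, 65.5 and 34.8 FPM. Neither was called, and neither differed from the control change by a called amount (−0.88 ± 0.38, limma adjusted p = 0.13, and −0.54 ± 0.38, limma adjusted p = 0.45). In DM3 Eda2r was below control in MUNC spliced (−0.71 ± 0.27, limma adjusted p = 0.043, with overlapping libraries) and MUNC genomic cells (−0.87 ± 0.27, limma adjusted p = 0.017). The first call was lost without control DM3 replicate 1 or 2 or MUNC spliced DM3 replicate 2 or 3 (log2 −0.62 to −0.55), and the second without control DM3 replicate 1 or 2 or MUNC genomic DM3 replicate 3 (log2 −0.76 to −0.61).

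Bbc3 (ENSMUSG00000002083, chr7:16308393-16318205, plus strand) encodes Puma, which frees Bax and its relatives from their inhibitors. It had 9.87, 13.8 and 8.84 FPM in control GM and 12.9, 8.36 and 8.91 FPM in control DM3, 8.28 to 11.5 FPM in the 6 MUNC spliced libraries, and 6.33, 8.54 and 6.91 FPM in MUNC genomic GM and 7.60, 5.89 and 6.89 FPM in MUNC genomic DM3. MUNC genomic libraries lay below all control libraries in each medium. The differences were −0.51 ± 0.18 (limma adjusted p = 0.0499) in GM and −0.49 ± 0.18 (limma adjusted p = 0.042) in DM3, and in DM3 MUNC spliced exceeded MUNC genomic by 0.49 ± 0.18 (limma adjusted p = 0.039). These calls were lost without control GM replicate 1 or 2 or MUNC genomic GM replicate 1 or 3 (log2 −0.56 to −0.33), without control DM3 replicate 1 or MUNC genomic DM3 replicate 2 or 3 (−0.50 to −0.31), and without MUNC spliced DM3 replicate 1 or 3 or MUNC genomic DM3 replicate 2 or 3 (0.39 to 0.50). In no line did Bbc3 change between media by a called amount.

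Counted over the genes, the move from GM to DM3 in control cells raised 2 members, Sesn1 and Eda2r, and lowered 2, Trp53 and Bax, when 29.6% of all tested genes were higher and 28.6% lower. The members' median log2 change was 0.02, equal to the 0.02 of all tested genes. With the replicate number as a block Fas was also called higher (limma adjusted p = 0.012), when 4628 of all tested genes were higher and 4431 lower. For MUNC spliced cells 0 members were higher and 3 lower (Ccng1, Bax and Zmat3), against 17.2% and 18.4% of all tested genes, with a median of −0.24 for the members and −0.01 for all genes. With limma, 6 members had an unadjusted p under 0.05 there, and edgeR and DESeq2 each called 0 higher and 3 lower. Of all tested genes edgeR called 2334 higher and 2319 lower, and DESeq2 2774 and 2443. Without MUNC spliced DM3 replicate 1 the count was 0 higher and 4 lower, and without MUNC spliced GM replicate 2 it was 0 higher and 5 lower. Of all tested genes the former fit called 2588 higher and 2630 lower, and the latter 2588 and 2790. In MUNC genomic cells 1 member was higher (Sesn1) and 3 lower (Trp53, Bax and Phlda3), against 26.3% and 25.1% of all tested genes, with medians of −0.21 and 0.02. The counts of 0 to 3 of 10 members lie near those shares. The plot of changes between media sets the 3 lines side by side.

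**Figure D2:**
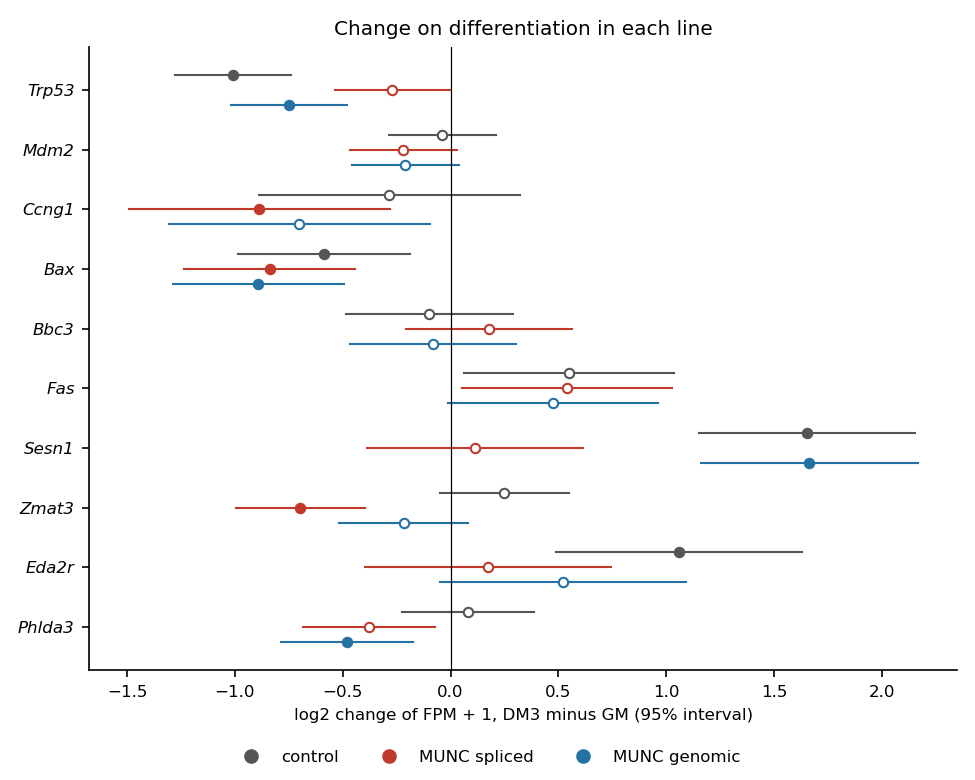
Log2 change of FPM + 1 from GM to DM3 (horizontal axis) for each gene in control (grey), MUNC spliced (red) and MUNC genomic (blue) cells, with 95% intervals from limma. Filled points are called at an adjusted p under 0.05. Sesn1 is at 1.65 and 1.66 in control and MUNC genomic cells and at 0.11 in MUNC spliced cells.

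The difference between lines in that response was called for Trp53 (0.74), Sesn1 (−1.54) and Zmat3 (−0.95) between MUNC spliced and control cells. That is 1 member higher and 2 lower, against 7.43% and 6.94% of all tested genes. The split of all calls was 1030 higher and 963 lower here, 803 and 1136 with equal library sums and 1042 and 635 with edgeR, and the same number of members, 1 higher and 2 lower, was called in both. The members' count was 3 in each of the 12 fits that left out 1 library, MUNC spliced DM3 replicate 1 included. For MUNC genomic against control cells 0 members were called in either direction, against 3.56% higher and 5.25% lower over all tested genes. Here limma gave 2 members an unadjusted p under 0.05 (Phlda3 and Zmat3), and edgeR and DESeq2 called 0. Between the MUNC lines Sesn1 alone was called (0 higher and 1 lower), against 5.36% and 5.17% of all tested genes. The count was 0 higher and 2 lower without MUNC spliced GM replicate 2, and 1 higher and 1 lower without MUNC spliced GM replicate 3.

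Against control in GM, MUNC spliced cells had 2 members higher (Fas and Sesn1) and 2 lower (Trp53 and Zmat3), against 18.2% and 17.3% of all tested genes. The split of all calls was 2530 higher and 2399 lower, and 3249 and 1658 with equal library sums, a scaling under which 3 members were higher and 1 lower. MUNC genomic cells had 1 member higher (Fas) and 1 lower (Bbc3) in GM, against 12.2% and 14.5%, with a split of all calls of 1694 and 2017, and of 2048 and 1596 with equal library sums, where 1 member was higher and 0 lower. The count was 0 without control GM replicate 2 or without MUNC genomic GM replicate 1, and 1 without control GM replicate 1 or 3 or MUNC genomic GM replicate 2. In DM3, MUNC spliced cells had 1 member higher (Fas) and 3 lower (Bax, Zmat3 and Eda2r), against 22.3% and 21.0%. Without MUNC spliced DM3 replicate 1 it was 1 higher and 4 lower, and without control DM3 replicate 1 or 2 or MUNC spliced DM3 replicate 3 it was 1 higher and 1 lower. With the replicate number as a block Mdm2 and Ccng1 were also called lower (limma adjusted p = 0.028 and 0.002). The block called 3760 of all tested genes higher and 3636 lower there. MUNC genomic cells had 1 member higher (Fas) and 4 lower (Bax, Bbc3, Zmat3 and Eda2r) in DM3, against 19.3% and 20.9%. This count of 5 was 3 without control DM3 replicate 2 or MUNC genomic DM3 replicate 1, 2 without control DM3 replicate 1 or MUNC genomic DM3 replicate 2, and 1 without MUNC genomic DM3 replicate 3. Ccng1 was also called lower with the block (limma adjusted p = 0.015), when 3396 of all tested genes were higher and 3606 lower. These 4 comparisons share control libraries within a medium. The plot of differences from control shows Fas to the right and Zmat3 to the left of 0 in both lines.

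**Figure D3:**
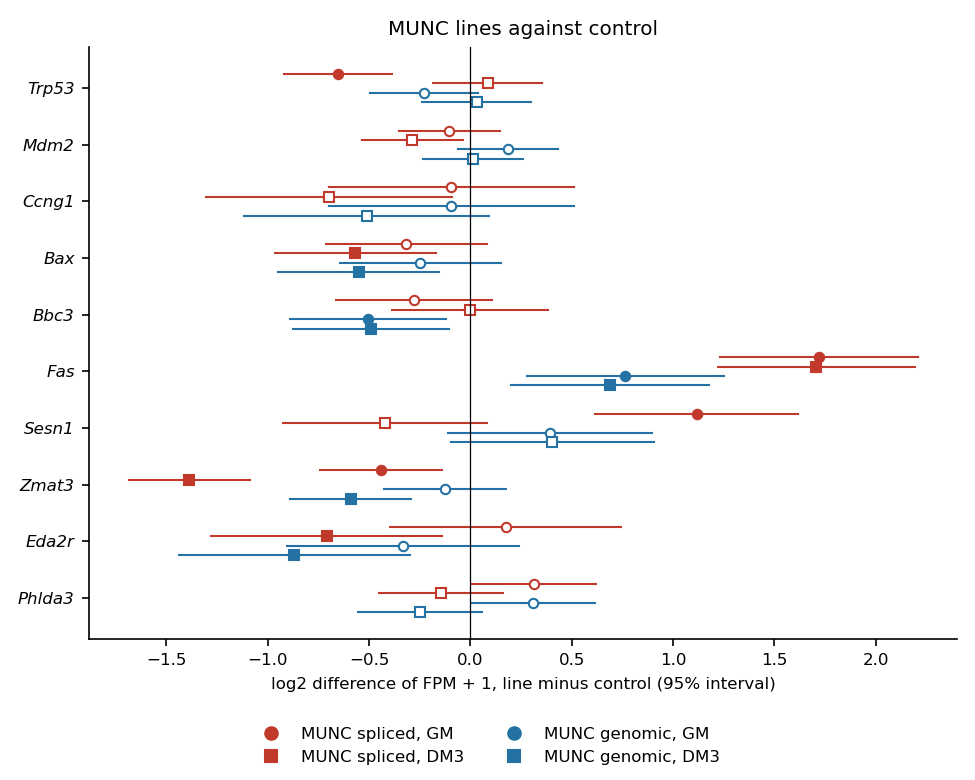
Log2 difference of FPM + 1 from control (horizontal axis) for each gene in MUNC spliced (red) and MUNC genomic (blue) cells in GM (circles) and DM3 (squares), with 95% intervals from limma; filled points are called at an adjusted p under 0.05. Fas is called higher in all 4 comparisons, and Zmat3 in DM3 is at −1.39 in MUNC spliced and −0.59 in MUNC genomic cells.

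Between the MUNC lines in GM, 2 members were higher in MUNC spliced cells (Fas and Sesn1) and 1 was lower (Trp53), against 19.9% and 16.0% of all tested genes. Without MUNC spliced GM replicate 2 or MUNC genomic GM replicate 3, Fas was the 1 member left. With the replicate number as a block Mdm2 was also called lower in GM (limma adjusted p = 0.03), when 3481 of all tested genes were higher and 3037 lower. In DM3, 2 were higher (Fas and Bbc3) and 3 lower (Mdm2, Sesn1 and Zmat3), against 23.4% and 20.8%, and the count of 5 was 3 without MUNC spliced DM3 replicate 3 or MUNC genomic DM3 replicate 2. Without MUNC spliced DM3 replicate 1 it was 1 higher and 3 lower. Over the 9 direct comparisons Fas was called higher in 6, Bax and Zmat3 were called lower in 5 each, and Trp53 was called lower in 4. Sesn1 was called higher in 4 and lower in 1, and Bbc3 and Eda2r higher in 1 and lower in 2 each. Ccng1, Mdm2 and Phlda3 were called lower in 1 each. These counts are of the main fit, which did not use the replicate numbers. With the replicate number as a block, Ccng1 was also called lower than control in DM3 in both MUNC lines. Mdm2 was then also called lower in MUNC spliced cells, against control in DM3 and against MUNC genomic in GM. Fas was then also called higher in control DM3 than in control GM. In the authors' deposited tables, 2 members were higher and 2 lower at an adjusted p under 0.05 in control DM3 against GM. Against control in GM these counts were 2 and 1 in MUNC spliced and 1 and 0 in MUNC genomic cells. Against control in DM3 they were 1 and 4 in MUNC spliced and 2 and 4 in MUNC genomic cells. The shares of all genes in the authors' tables are not given here, so these counts have no background beside them.

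Across the 18 libraries the genes whose log2 levels followed Trp53 most closely, among those averaging at least 5 FPM, were Smg5 (Pearson r = 0.985), Pes1 (0.983) and Mybbp1a (0.978). Those nearest to Mdm2 were Rab3ip (0.87), Actr2 (0.838) and Yaf2 (0.831). Among pairs of members, the most negative correlations were those of Trp53 with Sesn1 (r = −0.946) and of Fas with Zmat3 (−0.842). The most positive were those of Trp53 with Bax (0.832) and of Ccng1 with Bax (0.742). These values describe libraries that share medium, cell line and replicate number.

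The pathway was set in a wider frame with 44 further genes in 4 lists, of which 41 were tested. Of the cell cycle arrest and growth control targets, 7 of 10 tested genes were higher and 0 lower in DM3 than in GM in control cells (median log2 change 1.42), 7 higher and 1 lower in MUNC genomic cells (1.61) and 2 higher and 0 lower in MUNC spliced cells (0.55). Of all tested genes, 29.6% were higher and 28.6% lower in control cells, 26.3% and 25.1% in MUNC genomic and 17.2% and 18.4% in MUNC spliced cells, with medians of 0.02, 0.02 and −0.01, and the 2 of 10 in MUNC spliced cells lie near that share. In that line the list had 3 genes higher and 1 lower without GM replicate 2, 1 higher and 0 lower without GM replicate 3, and 1 and 1 without DM3 replicate 1. Proliferation genes fell in all 3 lines over the same interval, as given above, and their part in these counts was not tested. Cdkn1a had 193, 177 and 163 FPM in control GM and 359, 364 and 366 FPM in control DM3 (log2 1.03 ± 0.26, limma adjusted p = 0.0032). It rose in MUNC genomic cells from 100.2, 166 and 109 to 277, 234 and 298 FPM (1.13 ± 0.26, limma adjusted p = 0.0021). The MUNC spliced cells had 207, 129.8 and 148 FPM in GM and 435, 195 and 181 FPM in DM3 (0.65 ± 0.26, limma adjusted p = 0.068), with replicate 1 of DM3 far above the others. That change was called by edgeR (adjusted p = 0.043) and DESeq2 (adjusted p = 0.018), and without MUNC spliced DM3 replicate 2 or 3 or GM replicate 1. Cdkn1a was not called in any of the 6 comparisons between lines with all libraries. Without MUNC spliced DM3 replicate 1 it was below control in MUNC spliced DM3 (log2 −0.95, limma adjusted p = 0.0015, against −0.55 and 0.11 with it). When the fit held MUNC genomic and control DM3 alone, it was below control in MUNC genomic DM3 (−0.44, limma adjusted p = 0.01, against 0.21 with all groups).

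Btg2, an antiproliferative factor of the same list, was the gene of the wider set that rose most in MUNC genomic cells, from 29.3 ± 22.5 to 236 ± 103 FPM (SD, n = 3, log2 3.21, limma adjusted p = 0.0001). Gadd45a, a stress sensor, rose most in MUNC spliced cells, from 17.1 ± 8.78 to 92.0 ± 19.5 FPM (SD, n = 3, log2 2.44, limma adjusted p = 0.00098).

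**Figure D4:**
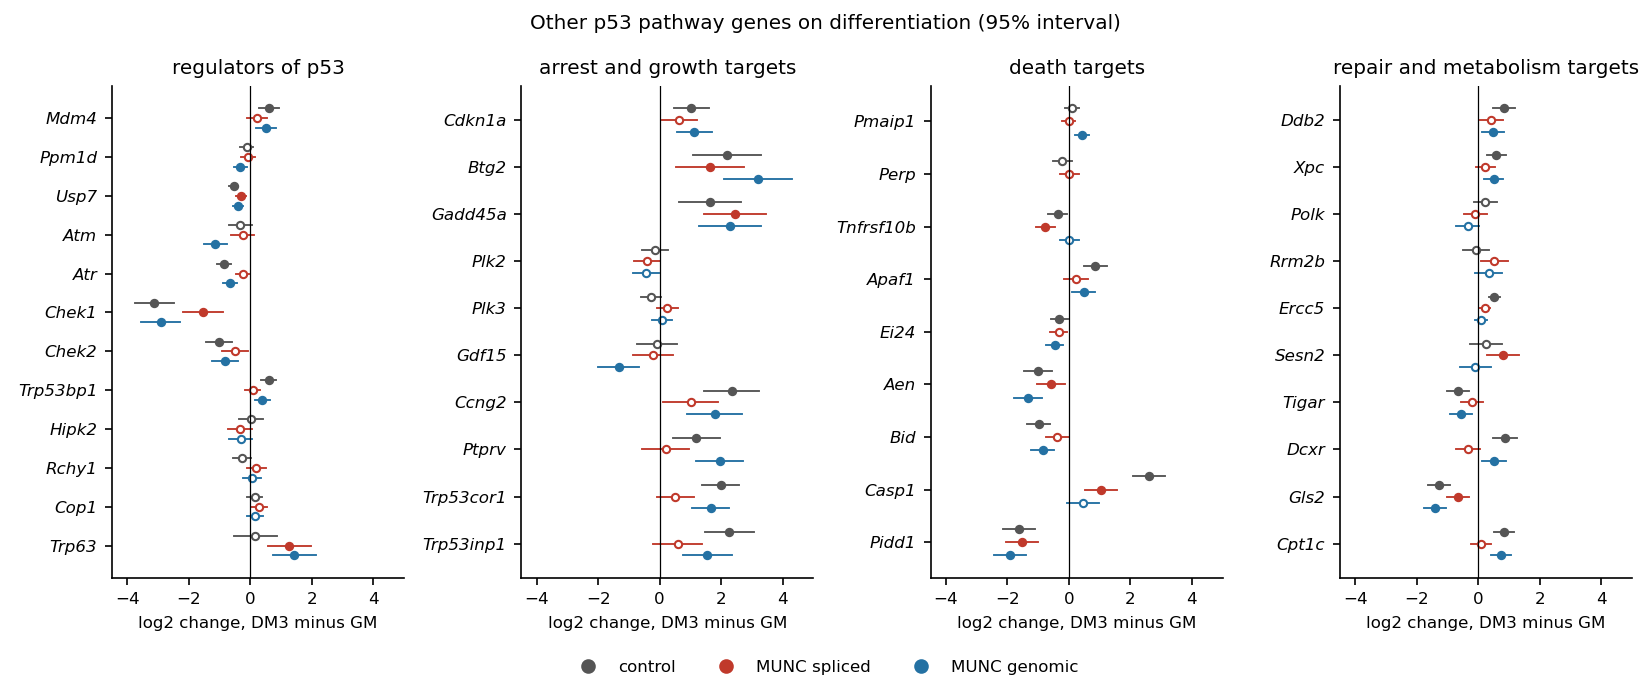
Log2 change of FPM + 1 from GM to DM3 (horizontal axis) for 41 further genes of the p53 pathway in 4 lists, in control (grey), MUNC spliced (red) and MUNC genomic (blue) cells, with 95% intervals from limma; filled points are called at an adjusted p under 0.05. Perp has no point in MUNC genomic cells, where it had 0 reads, and 7 of the 10 arrest and growth targets rose in control cells, where 29.6% of all tested genes did.

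Of the 12 tested regulators of p53, 2 were higher and 4 lower in DM3 in control cells (29.6% and 28.6% of all tested genes), 3 and 6 in MUNC genomic cells (26.3% and 25.1%) and 1 and 2 in MUNC spliced cells (17.2% and 18.4%). Most of these counts lie near the shares of all genes. The 12 include Trp63, which passed the filter through the MUNC lines and had at most 0.403 FPM in control libraries. Mdm4, the relative of Mdm2 that blocks p53, rose in control (log2 0.62 ± 0.15, limma adjusted p = 0.0027) and MUNC genomic cells (0.51 ± 0.15, limma adjusted p = 0.011) and had a change of 0.20 ± 0.15 (limma adjusted p = 0.32) in MUNC spliced cells. In GM it was higher in MUNC spliced than in control cells (0.41 ± 0.15, limma adjusted p = 0.047). That call was lost with edgeR, DESeq2, no filter and only the compared groups. It was also lost without control GM replicate 1 or 3 or MUNC spliced GM replicate 1 or 2 (log2 0.29 to 0.41). Chek1, a checkpoint kinase, was the gene of the wider set that fell most in all 3 lines, by 3.12 log2 units in control, 1.54 in MUNC spliced and 2.91 in MUNC genomic cells (limma adjusted p = 6.4e-07, 0.001 and 2e-06). Cdkn2a, whose product Arf inhibits Mdm2, had 0 reads in 18 of 18 libraries, where 3 reads would be at most 0.0757 FPM.

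Of the 9 death targets outside the members, 2 were higher and 5 lower in DM3 in control cells (29.6% and 28.6% of all tested genes), 1 and 3 in MUNC spliced (17.2% and 18.4%) and 2 and 4 in MUNC genomic cells (26.3% and 25.1%). The 9 include Perp and Pmaip1, which passed the filter through some lines only. Perp in both MUNC lines, and Pmaip1 in control and MUNC spliced cells, were too low to be called between media. Casp1, an inflammatory caspase, rose most in control cells, from 2.48 ± 1.30 to 19.0 ± 2.37 FPM (log2 2.60, limma adjusted p = 5.7e-07). The interferon response sum went from 65.7 to 374 FPM in control GM to 2670 to 4473 FPM in control DM3, and its part was not tested. Perp, a membrane protein gene, had 25.4, 18.5 and 18.2 FPM in control GM and 22.9, 16.7 and 14.0 FPM in control DM3. In MUNC genomic cells it had 0 reads in all 6 libraries, at least 397-fold lower than control in GM and at least 328-fold lower in DM3, taking 3 reads per library as the floor. The MUNC spliced cells had 1, 1 and 1 reads in GM and 1, 1 and 3 reads in DM3. Pmaip1, which encodes Noxa, a relative of Puma, was high in MUNC genomic cells alone. It had 13.6, 11.9 and 12.1 FPM in MUNC genomic GM and 19.1, 16.3 and 15.7 FPM in MUNC genomic DM3, against at most 0.296 FPM in control and 0.0252 FPM in MUNC spliced libraries. These levels separated the cell lines in both media.

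Of the 10 DNA repair and metabolism targets, 5 were higher and 2 lower in DM3 in control cells (29.6% and 28.6% of all tested genes), 1 and 1 in MUNC spliced (17.2% and 18.4%) and 4 and 2 in MUNC genomic cells (26.3% and 25.1%), several of them near those shares. In MUNC spliced cells the count was 3 higher and 1 lower without DM3 replicate 1, and 0 higher and 1 lower without DM3 replicate 3 or GM replicate 3. Sesn2, the relative of Sesn1, was the gene of the wider set that most exceeded MUNC genomic in MUNC spliced DM3, at 168 ± 67.3 against 48.9 ± 5.45 FPM (SD, n = 3, log2 1.69, limma adjusted p = 2.9e-05), whereas Sesn1 was lower there. Gdf15, a secreted stress factor, was at the upper end in MUNC spliced against control in GM (log2 2.40, limma adjusted p = 2.2e-05). Its mean was 1.63 FPM in control, 14.3 in MUNC spliced and 23.7 in MUNC genomic GM, and 1.48, 11.1 and 8.86 FPM in DM3, so that it was high in both MUNC lines. The other gene at an end of the wider set was Trp63, a relative of Trp53. It was higher in MUNC spliced than in control cells in DM3 (2.81, limma adjusted p = 5e-06) and than in MUNC genomic cells in GM (1.72, limma adjusted p = 0.00071). Trp63 was low, with a mean of 0.160 FPM in control, 3.39 in MUNC spliced and 0.149 in MUNC genomic GM. In DM3 the means were 0.287, 8.30 and 2.10 FPM, so MUNC genomic cells also stood above control there. The MUNC spliced GM libraries were spread, at 2.55, 6.64 and 0.974 FPM.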

How the data were processed

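Polyadenylated RNA of 18 C2C12 libraries was sequenced on an Illumina HiSeq 2500, per the labels. The submitters' processing notes name STAR, HTSeq, DESeq2 and mm10, without versions or roles, and the annotation is not given in the sources used here. Their expression values were deposited as 1 table of normalized signal (FPM, read counts scaled by library). Every value of a library was a whole multiple of 1 step, so that dividing by the step returned whole reads for 100% of values (tolerance 0.1 of a read, largest distance 0.0354). From 5 further tables by the authors, log2 fold changes and adjusted p-values of their contrasts were read; per the file headers the columns are those of DESeq2.

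Differences were tested with limma 3.58.1 (R 4.3.3) on log2(FPM + 1), a scale that understates changes of low genes. 1 fit held the 18 libraries with a mean per group, a variance trend and 12 residual degrees of freedom, for 12 comparisons, two-sided. The threshold for a call was 0.05 after Benjamini-Hochberg adjustment over 13869 genes. Groups came from the sample titles, and a source label that calls some samples myoblasts or myotubes differently was not used. p-values measure the spread between replicates that the labels call biological. The count tests on recovered reads, edgeR 4.0.16 and DESeq2 1.42.0, were alternatives. In control DM3 against GM edgeR called 3847 genes higher and 4187 lower. Other alternatives were a pseudocount of 0.1, no filter, equal library sums, quantile normalization, only the compared groups, the replicate number as a block, and each library left out. Limits on counts of 0 cover counting error only.

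Replicate numbers were checked by correlating deviations from group means. Same-number correlations were −0.0569 to 0.727, and all 3 exceeded 0.1 in 7 of 15 pairs of groups, which include every comparison with control within a medium, control DM3 against GM, and the MUNC lines in GM. The numbers were taken to pair the samples in those comparisons. The main fit did not use this pairing, and the replicate number entered as a block only as an alternative.

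The members, lists and tests were chosen with earlier results of these data known. All 10 members were named in every comparison. Of the wider set, Cdkn1a and Mdm4 were always named, with the called genes of highest and lowest change in each direct comparison, and the 3 genes most correlated with Trp53 and with Mdm2. Symbols were matched by Ensembl identifier, and positions and exonic lengths are from GENCODE M21 (GRCm38, the assembly of mm10). Of the wider set, Cdkn2a, Trp73 and Sfn did not pass the filter. A limma fit of the same form was run on simulated data for control DM3 against GM alone. Its outcome is not given here, and the other comparisons and the alternatives were not simulated.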

Additional observations from a re-analysis of the deposited data

Results flagged for a closer look

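For 3 genes the response to differentiation medium differed between MUNC spliced and control cells by limma's test of the difference itself. The change of Sesn1 from GM to DM3 in MUNC spliced cells minus that in control cells was −1.54 (SE 0.34, limma adjusted p = 0.008). That of Zmat3 was −0.95 (SE 0.20, limma adjusted p = 0.0068), and that of Trp53 was 0.74 (SE 0.18, limma adjusted p = 0.014). For Sesn1 the change in MUNC spliced cells also differed from that in MUNC genomic cells, by −1.55 (SE 0.34, limma adjusted p = 0.0075). For Sesn1 and Trp53 the mean GM level of MUNC spliced cells lay between the mean GM and DM3 levels of control cells.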

How the results depend on the processing

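Of 38 called member results, none changed direction, and DESeq2, edgeR, a pseudocount of 0.1 and the replicate block retained all 38. Equal library sums lost 4, no filter 10, only the compared groups 7 and quantile normalization 1, and 16 were lost in at least 1 fit that left out a library. The 22 others held under every alternative, among them each named Sesn1, Zmat3 and Trp53 difference in response. Sign changes of values called in neither fit numbered 92, all of main log2 values of at most 0.19. Counts of called members that moved by more than 1.5 times were as follows. MUNC spliced DM3 against GM (3) had 6 with the replicate block and 2 to 5 with 1 library left out. The block called 3192 of the 13869 tested genes higher and 3424 lower there. MUNC genomic DM3 against GM (4) had 7 with only the compared groups and 7 with the block. Of all 13869 tested genes the compared groups alone called 3751 higher and 3520 lower, and the block 4259 and 4085. MUNC genomic against control in GM (2) had 1 with equal sums, only the compared groups or quantile normalization, 0 without a filter and 0 to 2 with a library left out. The first of these fits called 2048, 1209 and 1839 of all tested genes higher, in that order, and 1596, 1314 and 1870 lower. Without a filter 1685 of 24893 genes were higher and 1817 lower. With a library left out, MUNC spliced against control in DM3 (4) had 2 to 6 and MUNC genomic against control in DM3 (5) had 1 to 4, the latter 2 without a filter. In the latter 2749 of 24893 genes were higher and 3103 lower without a filter. MUNC spliced against MUNC genomic had 1 with only the compared groups and 1 to 4 with a library left out in GM (3), and 3 without a filter and 3 to 4 with a library left out in DM3 (5). The compared groups alone called 2253 of all tested genes higher and 1769 lower in GM. Without a filter 3523 of 24893 genes were higher and 2999 lower in DM3. The response of MUNC spliced minus MUNC genomic cells (1) had 2 with the block and 1 to 2 with a library left out. The block called 1322 of all tested genes higher and 1394 lower there. All-gene counts of most fits that left out a library are not given here. No filter tests more genes, and leaving out libraries or groups leaves fewer samples; otherwise the cause was not tested.

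The replicate numbers were not taken to pair the media within the MUNC lines or the MUNC lines in DM3. There not all 3 same-number correlations exceeded 0.1, a cutoff that does not show pairing to be absent. The number of replicates, of 3, that correlated best with their own number was 3 between the MUNC genomic media. It was 1 between the MUNC spliced media and 3 between the MUNC lines in DM3. The block there added Trp53, Fas and Phlda3 (limma adjusted p = 0.024, 0.02 and 0.039) to the MUNC spliced and Ccng1, Fas and Eda2r (0.0016, 0.029 and 0.041) to the MUNC genomic change between media, Eda2r (0.037) to the difference of MUNC spliced from control in response, and Trp53 (0.019) to that of MUNC spliced from MUNC genomic. Where the numbers were taken to pair, the block changed no call beyond those given for Fas, Mdm2 and Ccng1. The alternatives for the wider lists were added after the data had been seen. In MUNC spliced cells from GM to DM3, the regulators (3 called) had 5 with equal sums and 5 with the block, the arrest and growth targets (2) 1 without a filter and 1 to 4 with a library left out, and the repair and metabolism targets (2) 5 with DESeq2, 4 with the block, 1 with only the compared groups and 1 to 4 with a library left out. Of all tested genes equal sums called 2162 higher and 2884 lower there, the block 3192 and 3424, and DESeq2 2774 and 2443. The compared groups alone called 1508 and 1538, and no filter 2366 and 2422 of 24893 genes. Depth limits Fas and Bbc3 most, at 95 to 806 and 329 to 780 reads.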
